A study of Mus musculus with 9 samples.

Results

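The Smarcc1 knockdown time course was followed from undifferentiated cells to day 7 by the percent of methylated GpC sites in consecutive genomic windows. It comprised 5 of the 9 libraries of the series, 1 from day 0 and 1 each from the knockdown at days 4, 5, 6 and 7. Windows were taken where all 5 libraries had a value, which kept 830519 of 833044 windows on chromosomes 1 to 19 and X. All cells were female FVB/CAST F1 mouse embryonic stem cells (mESCs), grown in 2i medium and differentiated by weaning into DME HiHi medium. Knockdown cells received the short hairpin virus on day 2 and puromycin on day 3. Day 0 cells were undifferentiated and had received neither. Differentiation, viral transduction, drug selection and the hairpin therefore cannot be told apart in any change from day 0. Only 1 hairpin was used. In a bulk library, fewer cells with an open site and a site less open in each cell cannot be told apart. Each day was a single library, so no difference given here has a replicate check or a p-value. Expression was not measured, so the depth of the knockdown is not shown by these data.

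NOMe-seq (nucleosome occupancy and methylome sequencing) treats fixed nuclei with a GpC methyltransferase, which can reach cytosines that are free of nucleosomes and bound protein. Bisulfite sequencing then reads the mark, so a higher percent GpC methylation stands for more open DNA. Smarcc1 is a core scaffold subunit of the BAF (SWI/SNF) complex, which slides and evicts nucleosomes with the energy of ATP and is needed for self-renewal and for orderly exit from pluripotency. CpG-rich promoters belong mostly to housekeeping and developmental genes and usually carry a nucleosome-depleted region, whereas CpG-poor promoters belong mostly to tissue-restricted genes.

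The hairpin label of the samples was matched by name to the entry Smarcc1.6 of the study's hairpin list. Its target was found once in Smarcc1, as 21 bases of coding sequence in exon 13 (GRCm38, chr9:110177473-110177493, + strand), and is shown to place the perturbation.
Smarcc1.6 target: caggatgaagaagcagttaca

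What the assay could read at a start site is shown for the 200 bases upstream of 5 genes that held the highest or the lowest mean rank of their class over the 5 libraries. The sequences are 5′ to 3′ on the strand of the gene in GRCm38. The measured window of Hist1h1c begins at chr13:23738750, so most of its stretch lies outside that window, while the others lie within theirs. Capitals mark GpC sites that are informative, that is GCA, GCC or GCT on either strand (TGC, GGC or AGC as read here), and sites that lie only in GCG on both strands are left in lower case. Hist1h1c encodes a linker histone, Rps27l a ribosomal protein-like factor, Eomes a mesendoderm transcription factor, Olfr592 an odorant receptor and Vmn2r44 a pheromone receptor.
Hist1h1c (chr13:23738608-23738807, + strand): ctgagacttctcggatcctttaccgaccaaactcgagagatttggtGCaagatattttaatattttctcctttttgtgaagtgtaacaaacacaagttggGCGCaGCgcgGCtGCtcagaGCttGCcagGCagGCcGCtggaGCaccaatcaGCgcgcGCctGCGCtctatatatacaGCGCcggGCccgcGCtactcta
Rps27l (chr9:66945886-66946085, + strand): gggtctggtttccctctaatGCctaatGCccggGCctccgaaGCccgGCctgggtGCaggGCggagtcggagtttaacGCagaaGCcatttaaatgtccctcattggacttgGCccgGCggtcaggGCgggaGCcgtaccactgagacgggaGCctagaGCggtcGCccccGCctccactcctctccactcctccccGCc
Eomes (chr9:118478012-118478211, + strand): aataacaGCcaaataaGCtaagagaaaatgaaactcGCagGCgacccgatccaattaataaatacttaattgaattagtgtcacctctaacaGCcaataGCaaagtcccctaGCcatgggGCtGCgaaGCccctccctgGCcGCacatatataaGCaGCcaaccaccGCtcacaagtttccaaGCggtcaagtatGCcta
Olfr592 (chr7:103184603-103184802, + strand): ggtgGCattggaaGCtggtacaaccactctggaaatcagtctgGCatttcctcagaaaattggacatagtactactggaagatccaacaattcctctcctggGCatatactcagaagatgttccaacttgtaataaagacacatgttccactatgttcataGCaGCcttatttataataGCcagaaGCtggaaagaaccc
Vmn2r44 (chr7:8383334-8383533, - strand): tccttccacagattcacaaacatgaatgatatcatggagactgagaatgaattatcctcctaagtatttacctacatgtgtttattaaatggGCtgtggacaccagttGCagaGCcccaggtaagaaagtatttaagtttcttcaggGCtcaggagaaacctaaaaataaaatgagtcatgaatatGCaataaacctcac

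These stretches held 20, 18 and 17 informative GpC sites in Hist1h1c, Rps27l and Eomes, but 8 in Olfr592 and 5 in Vmn2r44. The CpG counts were 15, 15 and 7 against 0 in both receptor genes. Over all 21750 protein-coding genes examined, 99.9% had at least 1 informative site in the 200 bases, and the median was 19 in genes of the high CpG group, 14 in the intermediate and 9 in the low. CpG-poor start sites therefore had fewer possible sites per base. The percent values below come from whole windows. On autosomes these were longer at low CpG starts (median 2681 bp) than at high CpG starts (2132 bp).

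Whole libraries differed in level. The autosomal medians of days 0, 4, 5, 6 and 7 were 11.3%, 11.1%, 20.2%, 11.9% and 7.14%. Such shifts cannot be told apart from differences in enzyme treatment between libraries, and all following values are relative to the same library. The share of windows at exactly 0% was 1.44%, 0.332%, 0.0566%, 0.581% and 5.44% on the same days, and read depth was unknown. Single windows were noisy, with correlations across autosomal windows of 0.081 to 0.144 between pairs of days. Correlations rose to 0.241 to 0.392 over promoter windows and to 0.434 to 0.740 over 1 Mb bins. Windows are neighbours in the same libraries and no p-value was attached to these values.

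Promoter windows, defined as those holding the 5′ end of a gene, were more open than other windows on every day. Of the kept windows, 29759 on autosomes and 1014 on the X were promoter windows. The autosomal promoter median was 1.23, 1.23, 1.21, 1.24 and 1.25 times the median of other windows on the 5 days. The log2 ratio changed from day 0 by 0.0094, -0.023, 0.014 and 0.028 at days 4, 5, 6 and 7, and each of these was smaller than the SD of the same value over the 19 autosomes (0.023, 0.038, 0.034 and 0.041). Only the steps into and out of day 5 exceeded that spread. The ratio fell by 0.032 from day 4 to day 5 (SD over autosomes 0.028), with the same sign on 18 of 19 autosomes. It was higher by 0.037 from day 5 to day 6 (SD 0.032), on 19 of 19 autosomes. On 2 other scales these steps, and the changes at days 5 and 7 against day 0, had the opposite direction. The gap between promoter and other windows was 2.54, 2.59, 4.14, 2.82 and 1.76 percentage points on days 0, 4, 5, 6 and 7, and the promoter median stood at percentile 65.3, 68.1, 69.7, 68.0 and 62.9 of autosomal windows. At day 5 promoters were thus farthest above the rest in points and rank, and nearest to it as a ratio.

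CpG content separated the promoters. A start site was called high CpG where the ratio of observed to expected CpG was at least 0.6 and GC content at least 55% within 500 bases on each side, and low CpG where the ratio was under 0.4. The 7707 autosomal high CpG windows had medians of 19.6%, 19.4%, 32.1%, 20.8% and 13.3% on the 5 days. These were 1.73, 1.75, 1.59, 1.75 and 1.87 times the autosomal median. The 5135 intermediate windows stood at 1.42, 1.48, 1.37, 1.48 and 1.49 times. The 16917 low CpG windows stayed between 1.02 and 1.03 times on all days. The order high, intermediate, low was therefore kept in all 5 libraries.

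The day 5 library had the lowest ratio of high CpG promoters and the day 7 library the highest. From day 4 to day 5 the log2 relative level of high CpG promoters changed by -0.14 (SD over autosomes 0.055, 18 of 19 autosomes), and from day 5 to day 6 by 0.14 (SD 0.046, 19 of 19). It was 0.11 higher at day 7 than at day 0 (SD 0.082, 16 of 19). In points above the autosomal median these promoters were instead highest at day 5 and lowest at day 7, with 8.27, 8.29, 11.9, 8.93 and 6.19 points. Their median percentile was 87.8, 91.4, 92.2, 91.1 and 85.4, again highest at day 5 and lowest at day 7. Intermediate promoters did the same, with 4.78, 5.34, 7.49, 5.74 and 3.50 points and percentiles 76.6, 82.6, 82.7, 82.3 and 74.0. Thus the direction of change of the high CpG group at days 5 and 7 depended on the scale. From day 0 to day 4 the percentile was higher by 3.52 for high and 5.99 for intermediate CpG promoters, while their log2 relative levels changed by 0.011 and 0.057, less than the SDs over autosomes of 0.068 and 0.079. The central range of all autosomal windows, from the 10th to the 90th percentile, was 4.62% to 20.6% at day 0, 11.7% to 30.8% at day 5 and 2.00% to 15% at day 7, which is the spread that the ranks are taken from.

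**Figure D1:**
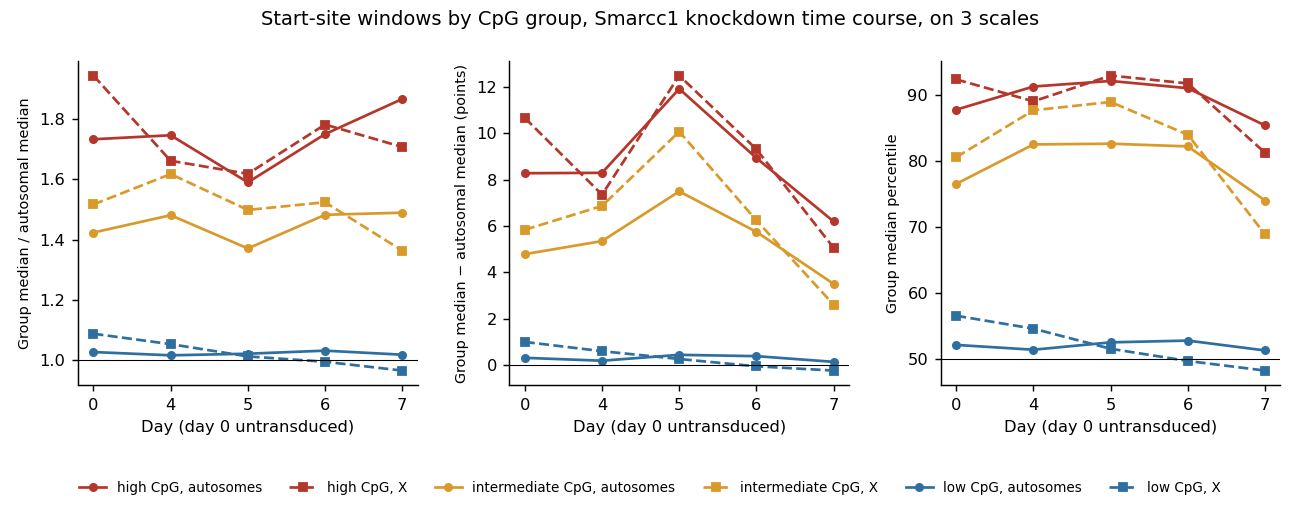
Start-site windows by CpG group on days 0, 4, 5, 6 and 7, as the group median over the autosomal median (left), the difference from that median in percentage points (middle) and the median percentile (right), for autosomes (solid) and the X (dashed), with 1 library per day. High CpG autosomal promoters have their lowest ratio (1.59) but their highest percentile (92.2) at day 5, and X promoters of every group fall from day 6 to day 7.

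The opening was narrow around the start site. In windows centred on high CpG starts the relative level was 1.88, 1.88, 1.67, 1.91 and 2.07 on the 5 days. At 2 kb downstream it was 1.21, 1.20, 1.10, 1.16 and 1.21. At 5 kb upstream it lay between 1.03 and 1.07. The lower ratio of day 5 and the higher ratio of day 7 were thus seen at the centre, and the days were close together beyond a few kilobases.

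**Figure D2:**
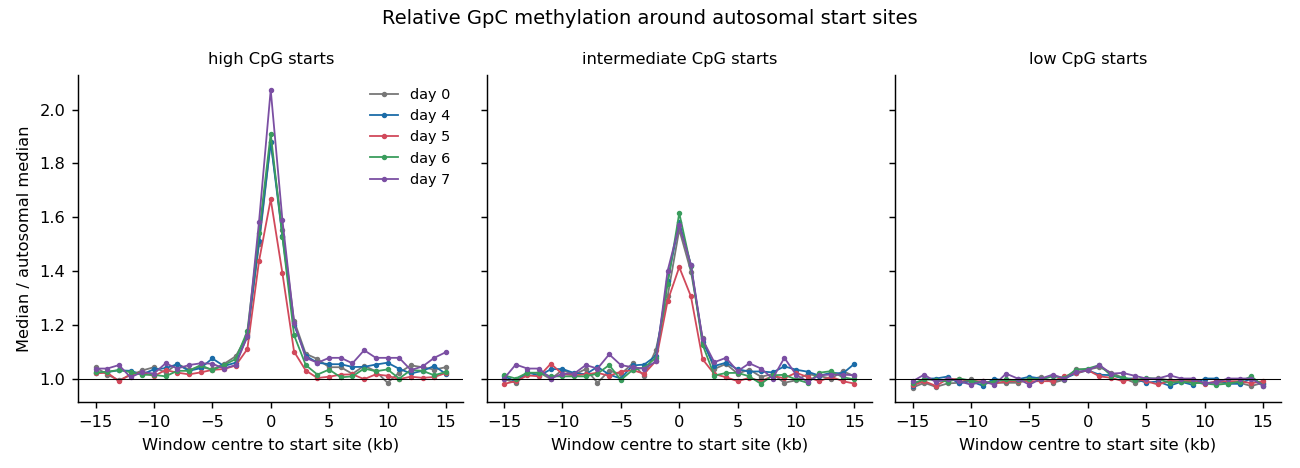
Median GpC methylation over the autosomal median (vertical axis) against the distance of the window centre from the start site in kb, for high, intermediate and low CpG starts on autosomes, 1 line per day. The peak at high CpG starts is 1.67 at day 5 and 2.07 at day 7, and low CpG starts have almost no peak.

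X-linked promoters of each CpG group lay below their autosomal counterparts at day 7 on all 3 scales. The 284 X windows of intermediate CpG content were above their autosomal counterparts at day 0, at 1.52 times the autosomal median and percentile 80.6. They were at 1.62, 1.50 and 1.52 times on days 4, 5 and 6, and at 1.36 times and percentile 68.9 at day 7, now below the autosomal group at 1.49 and 74.0. The 165 high CpG X windows started at 1.94 times at day 0, were at 1.66, 1.62 and 1.78 on days 4 to 6, and ended at 1.71, where autosomal high CpG windows were at 1.87. By rank they went from percentile 92.4 at day 0 to 89.1, 93.0 and 91.8 on days 4 to 6 and then to 81.3. At day 4 they already lay below the autosomal high CpG windows, at 1.66 against 1.75 times and percentile 89.1 against 91.4. At days 5 and 6 they lay above them. The 565 low CpG X windows declined on each successive day, from 1.09 at day 0 to 1.05, 1.01, 0.995 and 0.966. From day 5 on they lay below the autosomal low CpG windows. The whole X was also low at day 7, since all X windows had a median 1.003, 1.009, 1.014, 0.988 and 0.921 times that of the autosomes, and at day 7 single autosomes ranged from 0.966 to 1.04. The allele of origin was merged in these values, so the future inactive and active X were not separated. X promoter windows were also poorer in GC, with a median of 46.3% against 48.0% in the intermediate group, and the part of GC content in the X values was not tested.

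Single promoters were followed by rank. A window was counted as up or down when its percentile among autosomal windows moved by 30 or more. Over all 30773 promoter windows, 22.3% went up and 19.7% went down from day 0 to day 4. The shares were 22.6% up and 18.3% down at day 5 against day 0, 22.5% and 20% at day 6, and 21.5% and 23.6% at day 7. Between neighbouring days they were 20% up and 18.5% down from day 4 to 5, 18.9% and 20.7% from day 5 to 6, and 19.7% and 24.3% from day 6 to 7. More windows went up than down at days 4, 5 and 6 against day 0 and from day 4 to 5. More went down than up in the other 3 comparisons. Over all autosomal windows rises and falls were nearly equal, such as 22.9% up and 23.0% down between day 0 and day 4. Autosomal promoter windows had 22.3% and 19.8% there. Their share going up was below that of all autosomal windows in every comparison. The surplus of rises thus came with fewer falls, and not with more rises than among autosomal windows as a whole. The shares over all 30773 promoter windows are the background for the 23 gene classes below. A window within 30 percentile points of the top could not be counted as up, and one that near the bottom not as down. Few rises in a class of high rank are therefore partly set by the threshold. The background mixes CpG groups that differ. From day 0 to day 4, 14.6% of autosomal high CpG promoter windows went down, against 23.2% of low CpG ones. Class members are not replicates, and classes of 11 to 23 windows give medians that a few windows can move.

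Of the 23 classes, replication-dependent histone genes, which supply nucleosomes in S phase, had the highest relative level averaged over the days. They had medians of 28.0%, 26.0%, 38.6%, 27.7% and 17.6% over 50 windows. These were 2.48, 2.34, 1.91, 2.32 and 2.47 times the autosomal median, with percentiles from 94.5 to 98.3. From day 0 to day 4, 3 of 50 (6%) went down and 10 (20%) went up, against 19.7% and 22.3% of all promoter windows. From day 6 to day 7, 1 (2%) went up and 9 (18%) down, against 19.7% and 24.3%. Most of these windows already stood too near the top of the ranks to be counted as up. Hist1h1c had the highest mean rank, with 59.5%, 42.9%, 69.1%, 27.3% and 79.2%. Hist1h1t, the testis linker histone, had the lowest, with 11.5%, 12.6%, 13.0%, 9.46% and 4.44%.

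Cytosolic ribosomal protein genes (80 windows) stood at 1.90, 2.07, 1.58, 1.85 and 2.18 times, and nuclear genes of the respiratory chain (82 windows) at 1.65, 1.59, 1.49, 1.62 and 2.11 times. Both had their lowest ratio at day 5 and their highest at day 7. By rank, ribosomal protein genes were at percentile 91.5, 96.4, 91.8, 93.1 and 91.1, and respiratory chain genes at 85.4, 86.7, 88.4, 87.6 and 90.1. The rise of the respiratory chain at day 7 was therefore also seen in the percentile of the class. However, from day 6 to day 7, 12.2% of its windows went up and 19.5% down, against 19.7% and 24.3% of all promoter windows. More of its windows thus went down than up, as among all promoter windows. Rps27l had 34.0%, 33.9%, 46.2%, 26.9% and 26.9%, and Atp5g1, which encodes a subunit of the ATP synthase ring, had 40.3%, 27.9%, 40.6%, 26.5% and 24.7%. Both were far above the library median on all days. Proteasome genes (38 windows) lay between 1.54 and 1.70 times and glycolysis genes (16 windows) between 1.49 and 1.91 times.

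The BAF complex that the hairpin addresses was also followed at its own genes. The 30 windows of BAF subunit genes were at 1.87 times the autosomal median at day 0, then 1.53, 1.71, 1.47 and 2.00. The percentiles were 91.1, 84.5, 95.2, 81.6 and 88.2, so the class dipped at days 4 and 6 on both scales. From day 5 to day 6, 11 of 30 (36.7%) went down, against 20.7% of all promoter windows. From day 4 to day 5 none went down and 8 (26.7%) went up, against 18.5% and 20%. Bicra, a subunit of the non-canonical BAF complex, was high in every library, at 39.1%, 29.0%, 33.3%, 35.7% and 42.3%. Actb, the actin subunit, was at 25.8%, 5.41%, 21.3%, 21.6% and 0%. Polycomb and DNA methylation genes (37 windows) had 1.63, 1.38, 1.83, 1.48 and 2.06 times, with Phc1, a Polycomb repressive complex member, at 28.6% or more on each day. Tet3, a 5-methylcytosine oxidase, was lowest in the class, at 5.68%, 0.862%, 16.1%, 9.35% and 5.77%.

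Pluripotency genes were at their lowest at day 6. Their 23 windows had 2.07, 1.85, 1.64, 1.56 and 2.55 times the autosomal median, and percentiles of 94.4, 93.5, 93.5, 85.2 and 95.1. Between day 0 and day 6, 6 of 23 (26.1%) went down and none went up, where the background was 20% and 22.5%. With a class median at percentile 94.4 at day 0, most of these windows had no room to be counted as up. From day 5 to day 6, 8 of 23 (34.8%) went down, against 20.7% of all promoter windows. From day 6 to day 7, 7 of 23 (30.4%) went up, against 19.7%. Nr5a2, an orphan nuclear receptor, had the largest fall in rank, with 18.3%, 14.6%, 16.2%, 10.5% and 11.4%. Fgf4 had the largest rise, but from a window at 0% at day 0 to 12.9%, 20.2%, 7.41% and 9.62%. Genes of the formative and primed states (11 windows) stood at 2.04, 1.62, 1.25, 1.81 and 1.22 times. Of these windows, 5 of 11 (45.5%) went down from day 6 to day 7, against 24.3% of all promoter windows. Etv5, an ETS factor, kept high values of 54.8%, 36.7%, 57.7%, 25% and 20.5% within this class.

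Lineage genes showed no common course. Mesoderm and endoderm regulators (19 windows) had 1.57, 1.57, 1.11, 1.47 and 1.58 times and neural regulators (19 windows) 1.46, 1.85, 1.57, 1.61 and 1.52 times. In rank the mesoderm and endoderm class was at 82.8, 86.1, 61.2, 81.6 and 77.3, lowest at day 5, and the neural class at 78.2, 93.4, 91.6, 87.1 and 75.2. Eomes was open throughout, at 22.7%, 23.0%, 44.9%, 41.2% and 47.4%. The Hox cluster, which patterns the body axis, stood at 1.54, 1.61, 1.46, 1.66 and 1.42 times over 35 windows. Of these, 12 (34.3%) went down from day 6 to day 7, against 24.3% of all promoter windows. Wnt, Fgf and Bmp ligands (48 windows) lay between 1.30 and 1.48 times.

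Clustered protocadherins, whose promoter choice gives neurons a surface identity, followed an arch on both scales. Their 57 windows were at 1.20, 1.41, 1.40, 1.42 and 1.17 times the autosomal median, and at percentile 64.2, 79.4, 84.6, 79.2 and 59.4. From day 0 to day 4, 12 (21.1%) went up and 3 (5.26%) down, against 22.3% and 19.7% of all promoter windows. The share going up was thus near that of all promoter windows. From day 6 to day 7, 6 (10.5%) went up and 18 (31.6%) down, against 19.7% and 24.3%. Imprinted genes (39 windows) had relative levels of 1.56, 1.44, 1.24, 1.73 and 1.44. Of these windows, 11 (28.2%) went up from day 5 to day 6, against 18.9% of all promoter windows. From day 6 to day 7, 15 (38.5%) went down, against 24.3%. Genes of X inactivation, that is Xist, its regulators and its silencing partners, were at 1.95, 1.91, 1.86, 1.75 and 1.32 times over 16 windows, of which 5 were on the X. Their percentiles were 92.5, 94.2, 97.4, 89.2 and 67.0. The ratio thus fell on each successive day, while the rank was highest at day 5, and both were lowest at day 7. In this class 6 of 16 (37.5%) went down from day 6 to day 7, against 24.3% of all promoter windows. The Zfp zinc finger genes (373 windows) were at 1.66, 1.64, 1.49, 1.56 and 1.73 times, lowest at day 5 and highest at day 7. By rank the order of these 2 days was turned, with percentiles of 85.7, 88.6, 88.7, 85.4 and 81.9. High CpG promoters as a whole had the same dependence on scale.

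Receptor families, which are used by sensory neurons, lay between 0.851 and 1.05 times the library median over the 5 days. The 1076 windows of olfactory receptor genes were at 0.965, 0.970, 1.01, 1.00 and 0.897 times, and the 312 windows of vomeronasal receptor genes at 1.05, 0.905, 1.00, 0.964 and 0.851 times. The percentiles were 47.5, 47.3, 50.9, 50.2 and 44.1 for olfactory and 53.7, 41.4, 50.6, 47.0 and 41.3 for vomeronasal genes. At day 4 against day 0, 100 vomeronasal windows (32.1%) went down, against 19.7% of all promoter windows and 23.2% of autosomal low CpG ones. At day 7 against day 0, 92 (29.5%) went down, against 23.6% and 23.9%. Of the vomeronasal windows, 99.7% were low CpG. Both families thus had their lowest level at day 7, and these windows were long, with medians of 3931 bp and 4229 bp against 2809 bp for all windows. The part of window length in this result was not tested. Cytochrome P450, keratin and beta-defensin genes lay between 0.888 and 1.17 times.

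**Figure D3:**
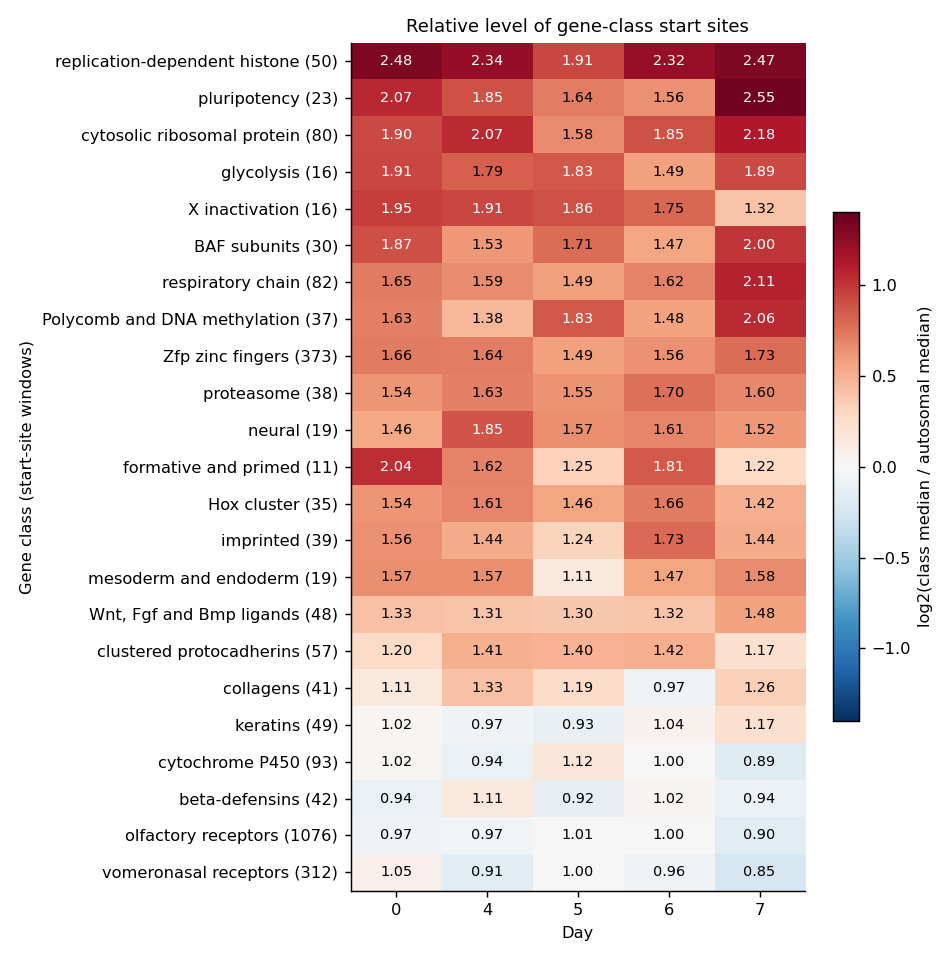
Class median of start-site windows over the autosomal median for 23 gene classes (rows, with the number of windows) on the 5 days (columns), coloured by its log2. Histone genes head the list at 1.91 to 2.48 times, and vomeronasal receptor genes close it at 0.851 times on day 7.

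Among the 17 genes followed individually, each value is the percent in 1 start-site window on days 0, 4, 5, 6 and 7. Smarcc1 itself had 27.3%, 16.7%, 44.9%, 33.3% and 15.6%, in a window shared with the start of Dhx30. Smarca4, an ATPase of the BAF complex, had 25.9%, 41.1%, 44.3%, 21.3% and 23.3%. Both were above the autosomal median in all 5 libraries.

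Of the core pluripotency factors, Pou5f1 had 23.6%, 34.5%, 54.6%, 21.5% and 20.5%. Sox2 had 29.2%, 18.6%, 44.9%, 56.2% and 28.6%, and Nanog had 24.2%, 25.9%, 35.2%, 17.2% and 18.2%. These 3 genes stayed above the library median on each day. Zfp42, a naive marker, had 32.1%, 34.7%, 33.3%, 30.5% and 15.2%, and Esrrb, a nuclear receptor of the naive state, stayed low with 7.41%, 7.69%, 19.1%, 12.2% and 2.78%. All windows within 10 kb, the start-site window included, were also averaged and set over the autosomal mean. On this measure Pou5f1 had 1.90, 1.84, 1.52, 1.44 and 1.75, and Esrrb had 0.882, 0.780, 0.985, 1.22 and 1.26. The wider surroundings of Esrrb thus had their 2 highest levels at days 6 and 7, although its own start-site window was lowest at day 7.

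Primed genes differed in course. Fgf5, an early primed marker, had 13.0%, 20%, 30.4%, 36.4% and 8.70%, and Otx2, a primed transcription factor, had 0%, 21.7%, 29.0%, 28.7% and 1.75%. Fgf5 was above the library median on all days and Otx2 at days 4, 5 and 6. Dnmt3b, a de novo DNA methyltransferase, had 28.3%, 6.00%, 25.2%, 21.6% and 0%, below the library median at days 4 and 7. For lineage factors, T had 8.70%, 14.7%, 29.8%, 3.23% and 5.06%, and Gata6 had 17.8%, 13.0%, 12.9%, 25.9% and 5.88%. Sox17 had 17.9%, 22.8%, 40.9%, 22.7% and 11.8%. Pax6 had 26.4%, 21.1%, 22.0%, 30.9% and 10.6%, and Sox1 had 18.5%, 26.9%, 31.7%, 29.1% and 12.5%. Sox17, Pax6 and Sox1, regulators of endoderm and of neural fate, were above the library median on every day.

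Xist, the RNA that coats the X to be silenced, had 22.9%, 20.1%, 31.2%, 6.33% and 1.82% at its start site. It was above the autosomal median on days 0, 4 and 5 and below it on days 6 and 7. Over the 8 windows within 10 kb, the start-site window among them, its relative level was 1.46, 1.46, 1.46, 1.06 and 0.990. The low start-site window is part of these means, so how far the lower level extended beyond it was not separated. Tsix, its antisense partner, had 13.6%, 24.1%, 40.5%, 5.26% and 7.69% in the start-site window and relative levels of 1.61, 1.73, 1.59, 1.39 and 1.49 within 10 kb. Its single window was below the library median at day 6 only, and its 10 kb mean was above the autosomal mean on all days.

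**Figure D4:**
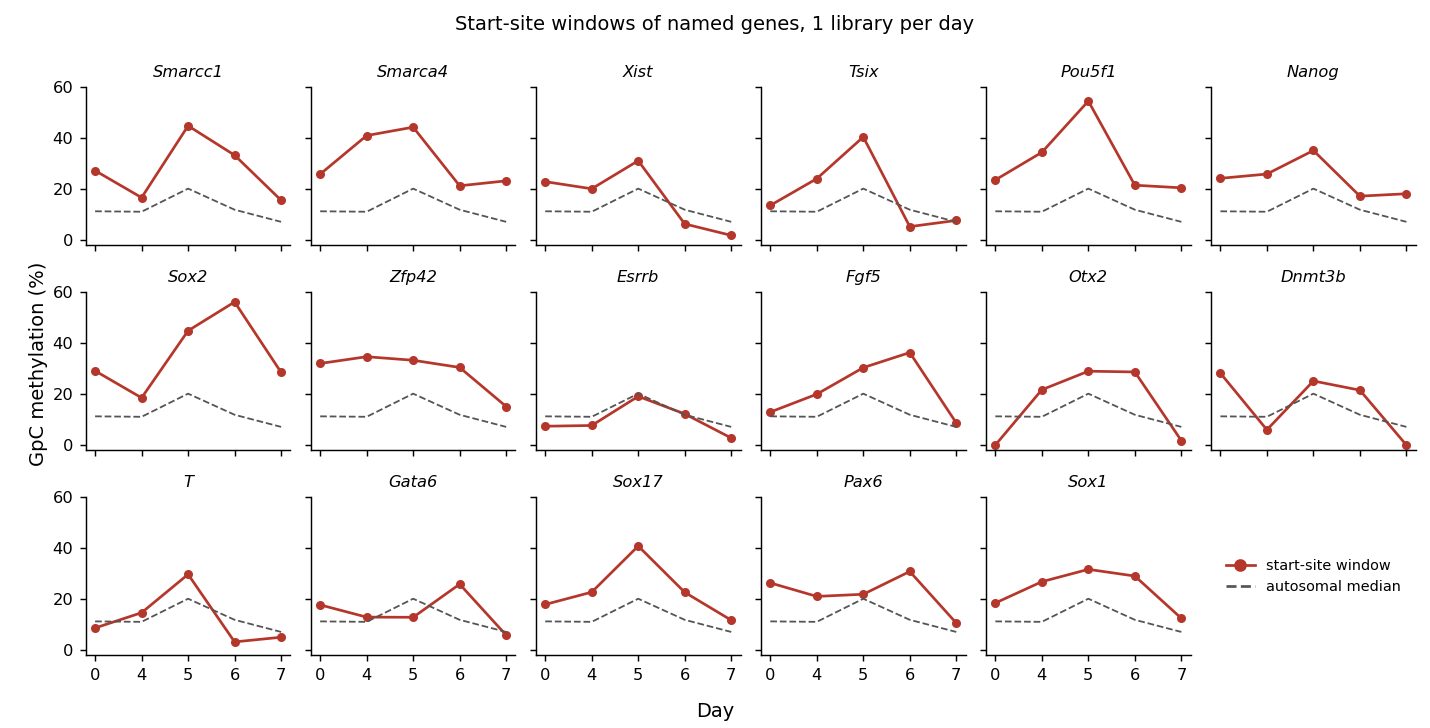
Percent GpC methylation (vertical axis) in the start-site window of 17 genes on days 0, 4, 5, 6 and 7 (points, 1 library each), with the autosomal median of the library as a dashed line. Xist lies above the dashed line on days 0, 4 and 5 and below it on days 6 and 7, and Pou5f1, Nanog and Sox2 lie above it throughout.

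Promoter windows that lay on the same side of their day 0 rank on all 4 later days were counted next. They numbered 6573 higher (21.4%) and 5986 lower (19.5%) of 30773, and all 4 comparisons share the day 0 library. A window with a low or high value in that library alone can enter these counts. The same share was not counted over all windows, so neither count is read as an excess among promoters. The 5 largest rises were at Sptlc2, a subunit of the first enzyme of sphingolipid synthesis, Nbeal1, Ephb4, an ephrin receptor, Rccd1 and Snx30, a sorting nexin. Each of these was at 0% at day 0 and at 15.9% or more on every later day. Sptlc2 had 37.0%, 47.0%, 38.0% and 25.8% at days 4, 5, 6 and 7. The largest falls were at Gm4567, Gm6121, Gm14003, a window shared by Emc1, Mrto4 and Ubr4, and Slc22a28. Slc22a28, an organic anion transporter, had 32.8%, 9.41%, 5.26%, 7.84% and 1.52%. They were chosen for extreme day 0 values as much as for later ones.

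On the scale of 1 Mb the spread of bins relative to the library mean was smallest at day 5 and largest at day 7. Over 2404 autosomal bins the SD of the relative level was 0.066, 0.062, 0.043, 0.058 and 0.094 on the 5 days. In percentage points the SD was 0.793, 0.726, 0.886, 0.724 and 0.743, which was largest at day 5, so the order of the days in spread depended on the scale. The level followed GC content to a different extent on each day, with correlations across bins of 0.36, 0.22, -0.078, 0.28 and 0.63. In the tenth of bins with the lowest GC content the median relative level was 0.989, 1.01, 1.02, 0.998 and 0.921, and in the tenth with the highest it was 1.04, 1.04, 1.01, 1.04 and 1.10. At day 7 both ends were therefore farthest apart, and at day 5 their order was turned.

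Several measured features moved with this gradient. Without promoter windows the correlations were 0.28, 0.12, -0.21, 0.18 and 0.58, in the same order of days. Without windows at 0% or 100% they were 0.41, 0.23, -0.067, 0.30 and 0.69. The correlation of bin level with window length was -0.39, -0.22, 0.025, -0.34 and -0.66. Windows were also longer where informative GpC sites were sparser. On autosomes the medians were 2132 bp at 114 sites per kb in high CpG promoter windows and 2797 bp at 81.3 in other windows. The day 7 library had the most windows at 0%. The parts of site density and coverage in the gradient were not tested.

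**Figure D5:**
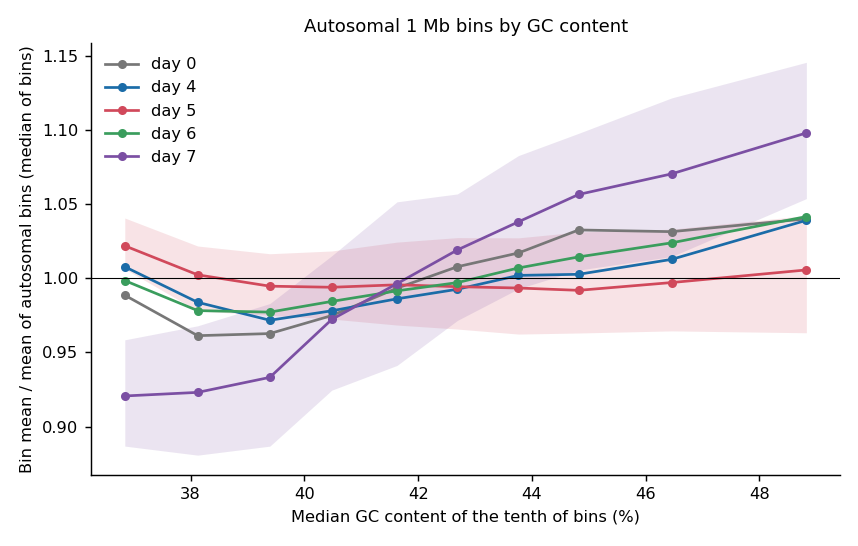
Median over bins of the bin mean divided by the mean of autosomal bins (vertical axis) for autosomal 1 Mb bins in 10 equal groups ordered by GC content (horizontal axis, percent), 1 line per day, with shading for the interquartile range over bins on days 5 and 7. Day 7 runs from 0.921 to 1.10 and day 5 from 1.02 to 1.01, with lower values between these ends at day 5.

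The X was set out in 161 bins. The share of X bins below the autosomal mean was 61.5%, 55.9%, 40.4%, 59.0% and 80.1% on days 0, 4, 5, 6 and 7, and the median X bin had a relative level of 0.984, 0.990, 1.01, 0.985 and 0.927. The X followed the order of AT-rich autosomal bins, which were also highest at day 5 and lowest at day 7.

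Single bins were then compared with day 0. The 5th and 95th percentiles of the log2 change were -0.11 and 0.12 at day 4, -0.12 and 0.13 at day 5, -0.11 and 0.11 at day 6, and -0.18 and 0.15 at day 7. Averaged over days 4 to 7, the largest fall was at chromosome 2 from 76 to 77 Mb, with Ttn, the giant sarcomere protein, Osbpl6 and Pde11a, where the relative level was 1.19 at day 0 and 0.997, 1.04, 1.05 and 0.989 afterwards. The bin at chromosome 5 from 75 to 76 Mb holds Pdgfra, Kit and Kdr, receptor tyrosine kinases of mesodermal and germ cell lineages, and Gsx2. It had 1.13 at day 0 and 0.995, 0.989, 0.958 and 1.02 at days 4, 5, 6 and 7, below day 0 in all 4 later libraries. The bin at chromosome 10 from 130 to 131 Mb, with odorant and vomeronasal receptor genes and Neurod4, went from 1.08 to 0.982, 0.948, 0.923 and 0.856.

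The largest rise was at chromosome 12 from 18 to 19 Mb, with 1 protein-coding start, from 0.752 to 0.881, 0.932, 0.887 and 0.772. It was below the autosomal mean in every library, and at day 0 it was the lowest of the 2404 autosomal bins. Bins named for their change from day 0 were chosen for day 0 values as much as for later ones. At chromosome 7 from 142 to 143 Mb, with Dusp8 and a cluster of Krtap5 hair keratin-associated genes, the level was 0.868, 0.945, 0.922, 1.04 and 1.07. This bin had 30 protein-coding starts.

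Among steps from the day before, the largest fall was from day 5 to day 6 at chromosome 7 from 20 to 21 Mb, which holds Vmn1r genes. Its relative level was 1.01 at day 5 and 0.696 at day 6, and it rested on 56 windows. From day 6 to day 7 the level fell from 0.834 to 0.621 at chromosome X from 3 to 4 Mb, with Btbd35f genes and 75 windows, and from 1.03 to 0.796 at chromosome 4 from 77 to 78 Mb, with no protein-coding start. Rises at that step were at chromosome 12 from 8 to 9 Mb, with Rhob, Sdc1 and Pum2 (0.999 to 1.20), and at chromosome 1 from 89 to 90 Mb, with Gbx2, a naive pluripotency factor (0.989 to 1.18). The bins that fell had GC contents of 40.7% and 36.6%, and those that rose 45.5% and 48.0%, the same order as the gradient of day 7.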

How the data were processed

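The members of the gene classes, the lists and the comparisons were chosen with earlier results of these data known. Per the labels and the study's methods, libraries were demultiplexed with bcl2fastq, trimmed with trim_galore and aligned with Bismark to mm10 masked at FVB and CAST variants, and informative GpC positions were kept with coverage2cytosine. For consecutive windows of 200 read positions the authors deposited a percent value, the share of methylated GpC calls from Seqmonk, with both alleles merged and no normalisation between libraries. No counts or coverage were used, so depth is unknown and no interval was computed.

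Samples were grouped by title. Windows with a value in all 5 libraries were kept, which removed 2525 of 833044 (0.303%). Genes were the 34568 protein-coding, lncRNA and TEC (unverified transcript) genes of GENCODE M21 on GRCm38, of which 33802 had their 5′ end in a kept window. Relative level is the median of a group over the autosomal median of its library, and changes are differences of its log2. For windows within 10 kb of a gene, gene bodies and bins, means were used in place of medians. The SD over the 19 autosomes describes spread along the genome and not between libraries. Percentile ranks were taken among autosomal windows with ties at their middle rank. A move of 30 percentile points was counted. Bins of 1 Mb held 50 or more windows. Genes named in the text were a fixed list of 17, the highest, lowest, most risen and most fallen member of a class (a selection is printed), the 5 most risen and fallen promoter windows and gene bodies, and the most changed bins. No test was possible with 1 library per day. Sequences were read from GRCm38 and the functions were tested on simulated data. Python 3.11.15, numpy 2.4.6 and pandas 2.3.3 were used.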

Additional observations from a re-analysis of the deposited data

Results flagged for a closer look

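Windows on the Y chromosome stood outside the comparisons, and the cells are labelled female. Of 246 Y windows, 239 to 245 had a value in each library, and their medians on days 0, 4, 5, 6 and 7 were 11.6%, 11.8%, 19.8%, 11.1% and 6.25%, which followed the autosomal median of each library. What gave rise to these values was not tested.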

How the results depend on the processing

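With 1 library per day no sample could be left out. No paired analysis was possible because the groups hold 1 library each and no test was run. For the promoter to other ratio, quantile normalization moved the log2 changes from day 0 to 0.055, 0.084, 0.049 and -0.044 at days 4, 5, 6 and 7, that from day 6 to 7 to -0.093, and turned the steps into and out of day 5 to 0.029 and -0.034. Those steps were also turned on the percentage point scale (1.55 and -1.32 points) and by percentile rank (2.02 and -2.10). Means in place of medians gave -0.072 at day 5 and 0.070 at day 7 against day 0, and -0.082 and 0.10 for the steps into and out of day 5. Changes smaller than the SD over autosomes also had the other sign on the point and rank scales, at 4.93 percentiles, and likewise in points, for day 5 against day 0, -0.77 points and -2.46 percentiles for day 7 against day 0, and -1.05 points and -5.30 percentiles for day 7 against day 6, and that at day 4 was -0.0058 with the window centre within 1 kb of a start site. For high CpG promoters, 2 scales chosen after seeing the data turned the direction. In points the changes were 3.64 from day 0 to 5, -2.08 from day 0 to 7, 3.63 from day 4 to 5, -2.99 from day 5 to 6 and -2.74 from day 6 to 7, and in percentiles 4.37, -2.40, 0.85, -1.10 and -5.66. Moving the CpG limits by 0.1 turned none. With means, the change from day 0 to the mean of days 4 to 7 turned to 0.044 for pluripotency, 0.056 for mesoderm and endoderm, 0.077 for X inactivation and 0.015 for glycolysis genes. All bin correlations with GC content stayed within 1 SD over autosomes with bins of 500 kb or 2 Mb and with ranks, and likewise in 2 settings added after seeing the data, without windows at 0% or 100% and without promoter windows. The causes of these differences were not tested.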

Other observations

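Bodies of protein-coding genes were averaged over the windows centred between the gene's ends, for 4931 genes with 20 or more windows, and expressed relative to the autosomes. Values of single genes are descriptions, chosen for their size. A ranking by change from day 0 favours bodies that were extreme in the single day 0 library, so their later values are in part set by that choice. The 5th and 95th percentiles of all bodies at day 0 were 0.842 and 1.26. The largest falls from day 0 to the mean of days 4 to 7 included Tet2, an oxidase of 5-methylcytosine, whose body had relative levels of 1.65, 1.28, 1.08, 0.986 and 0.818 on days 0, 4, 5, 6 and 7. Tet2 was lower on each successive day. Manba, a lysosomal mannosidase, had 1.61, 1.56, 1.05, 1.11 and 0.833, and Sox13, an SRY-related factor, had 1.75, 1.44, 1.03, 1.15 and 0.943. Wdr62, a centrosomal protein, and Mras, a small GTPase, went from 1.40 to 0.779 and from 1.51 to 1.02 between day 0 and day 7. The largest rises were in Iqce (0.614, 1.17, 0.991, 0.947 and 1.13), Kndc1, Tarbp1, 9630041A04Rik and Shisal1, which were all at 0.675 or less at day 0.

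Between the mean of days 4 and 5 and that of days 6 and 7 the largest rises were in Uck2, a uridine kinase, Pmepa1, an inhibitor of TGF-beta signalling, Ccdc85c, Tsc22d3 and Src. Uck2 had 1.25, 0.860, 0.937, 1.47 and 1.55 on the 5 days, and Src had 1.15, 0.981, 1.11, 1.48 and 1.40. The largest falls were in Vmn2r60, Zfp936, Slc22a27, Kdm4a and Zfp654. Kdm4a, a histone demethylase, had 1.25, 1.17, 0.963, 0.908 and 0.639. Across gene bodies this change had a correlation of 0.26 with GC content, as a description over genes that share the same libraries.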
